A study of Mus musculus with 2 samples.

Results

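Mir106b-25 and Mir106a-363 are small clusters of miRNA genes that are paralogs of the Mir17hg cluster, which encodes miR-17 and its neighbours. The members were chosen by gene identifier, as the rows that GENCODE names Mir106b, Mir93 and Mir25 for Mir106b-25 and Mir106a, Mir18b, Mir20b, Mir19b-2, Mir92-2 and Mir363 for Mir106a-363. All 9 had a row, among 1973 miRNA gene rows. The data are microRNA-seq read counts from the heart of healthy B6NCrl mouse embryos at 13.5 days, from an RNA size class under 30 nucleotides. Tissue of male and female embryos was pooled, no treatment or mutation is labelled, and 2 libraries from separate biosamples stand as biological replicates of this 1 group. The labels give both biosamples the same donor record. The design has no contrast between conditions, so the clusters were compared with each other inside each library, seed by seed.

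A miRNA finds its target mRNAs mainly through its seed, which is bases 2 to 8 counted from its 5′ end, so miRNAs with 1 seed share most of their targets whichever locus makes them. The Mir106b-25 genes lie in an intron of Mcm7, which encodes a subunit of the helicase that unwinds DNA in replication, and they are processed out of its transcript. The Mir106a-363 genes lie on the X chromosome, and the Mir17hg genes come from a non-coding host transcript. In mice the Mir17hg cluster is needed for normal heart and lung development. Loss of either paralog cluster alone is tolerated, while embryos that lack both Mir17hg and Mir106b-25 die with heart defects. Targets known for the miR-17 seed include the cell cycle inhibitor Cdkn1a, and those known for the miR-25/92 seed include the pro-apoptotic gene Bcl2l11.

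The libraries held 12136246 reads in replicate 1 and 12282789 in replicate 2. The sense strand of miRNA genes took 5569959 reads in replicate 1 and 6039005 in replicate 2, and levels are counts scaled to a sense total of 1000000 (CPM). A short RNA read spans a whole mature miRNA, so levels of different genes were set side by side as CPM. Counts per hairpin length served as an alternative. Ratios between genes are ratios of reads. Whether different miRNA sequences enter a library equally well was not tested, and neither the spread of 2 libraries nor a counting interval can show it. A row pools both arms of a hairpin. The labelled tissue matched its markers in part: Mir208b, an intronic miRNA of the heart myosin gene Myh7, stood at 41742 and 44185 CPM in replicates 1 and 2, while the heart muscle genes Mir1a-1 and Mir133a-1, which have copies at other loci, stayed at 4.49 CPM or less. Markers of endothelium, smooth muscle and red blood cells were also present. The libraries differed by more than read sampling (chi-square 35589 on 287 degrees of freedom over 288 rows), so they are not a single library under 2 names.

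The members carry 4 seeds, and 2 of these occur in both clusters. The miR-17 seed is carried by Mir106b and Mir93 in Mir106b-25, and by Mir106a and Mir20b in Mir106a-363. The main mature miRNAs with this seed are shown 5′ to 3′ as RefSeq gives them on GRCm38.p6, with the seed in capitals, because their bodies show how far the paralogs can be told apart by sequence.
miR-106b-5p: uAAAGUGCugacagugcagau
miR-93-5p: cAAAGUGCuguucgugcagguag
miR-106a-5p: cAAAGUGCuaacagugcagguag
miR-20b-5p: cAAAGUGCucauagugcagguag
miR-17-5p: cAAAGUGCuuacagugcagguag
miR-20a-5p: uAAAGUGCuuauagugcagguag
Counted from the 5′ end, miR-106a-5p differs from miR-17-5p of the Mir17hg cluster at 1 of 23 bases (U10A, the miR-17-5p base first). MiR-106b-5p differs from miR-106a-5p at 3 of the 21 bases compared, and miR-93-5p differs from it at 4 of 23. All 4 members with this seed have a mature sequence that no other locus of the RefSeq table holds. Mir17 held 106155 and 125523 reads in replicates 1 and 2, against 341 and 310 for Mir106a. Whether misread reads of such close and higher paralogs were counted at these members was not tested.

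The miR-25/92 seed is carried by Mir25 in Mir106b-25, and by Mir92-2 and Mir363 in Mir106a-363. The mature miRNAs are shown with Mir92-1 of the Mir17hg cluster left out, since its miR-92a-3p is identical to that of Mir92-2.
miR-25-3p: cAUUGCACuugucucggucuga
miR-92a-3p: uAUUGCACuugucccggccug
miR-363-3p: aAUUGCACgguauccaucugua
MiR-25-3p differs from miR-92a-3p at 3 of the 21 bases compared and from miR-363-3p at 13 of 22. The other seeds of Mir106a-363 have no counterpart in Mir106b-25 and are shown for that reason. The miR-18 seed differs from the miR-17 seed at 1 base (A4G, the miR-17 base first).
miR-18b-5p: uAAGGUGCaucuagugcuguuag
miR-19b-3p: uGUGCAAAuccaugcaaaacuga
Of the 1738 mature entries in the RefSeq table, 7 carry the miR-17 seed and 7 the miR-25/92 seed (0.403% each), 2 carry the miR-18 seed and 3 the miR-19 seed.

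The Mir106b-25 cluster was well expressed in the embryonic heart. Its 3 genes held 10896 CPM in replicate 1 and 12026 CPM in replicate 2, or 1.15% ± 0.0799 of all sense counts (SD, n = 2). Mir93, whose miRNA represses Cdkn1a and other cell cycle inhibitors, was the highest at 6668 and 7548 CPM in replicates 1 and 2 (mean 7108 ± 622 CPM), rank 27 of 1973 rows. Mir106b, its partner of the same seed, held 3919 and 4203 CPM (4061 ± 201 CPM), rank 34. Mir25, at the end of the cluster, held 309 CPM (exact 95% confidence interval 294 to 324) in replicate 1, and in replicate 2 its level was 275 CPM (262 to 288), rank 128. Mir93 exceeded Mir106b in both libraries, by 1.70-fold and 1.80-fold (log2 0.81 ± 0.0551). Mir25 lay under both, at a log2 ratio of -4.61 ± 0.245 to Mir93, which is 24.4-fold lower. These values come from whole tissue, in which fewer cells of a type and less RNA per cell cannot be told apart.

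Mir106b lies at chromosome 5, 138165737 to 138165818, Mir93 at 138165523 to 138165610 and Mir25 at 138165321 to 138165404, all on the minus strand of mm10. The hairpins span 498 nucleotides in the order Mir106b, Mir93 and Mir25, inside intron 13 of the 15-exon transcript Mcm7-201. Mir93 and Mir25 also lie inside an exon of another Mcm7 transcript, annotated as keeping the intron.

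The rows of the Mir106a-363 cluster held few reads. Its 6 genes summed to 193 CPM (replicate 1) and 158 CPM (replicate 2), or 0.0175% ± 0.00245 of the sense counts. The rows of Mir92-2 and Mir19b-2, whose mature miRNAs have copies, may lack reads. In that case this sum and share are lower bounds. Mir106a was the highest, with 61.2 CPM in the first library (exact 95% confidence interval 54.9 to 68.1) and 51.3 CPM in the second (45.8 to 57.4), rank 213. Mir20b, which shares the miR-17 seed, held 42.7 and 30.97 CPM in replicates 1 and 2. Mir92-2, a locus for miR-92a, held 42.0 and 40.2 CPM. Mir363, with the same seed as miR-92a, held 40.2 and 27.8 CPM. These 4 rows rested on 168 to 341 reads in each library.

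Mir18b, a paralog of Mir18, held 36 reads in replicate 1 and 39 in replicate 2, which is 6.46 CPM in both. Mir19b-2, a locus for miR-19b, held 1 read in replicate 1 (0.180 CPM, exact interval 0.00455 to 1.00) and 8 reads in replicate 2 (1.32 CPM, 0.572 to 2.61). It was the lowest member in both libraries. In all, 7 of the 9 members reached 10 CPM in both libraries, beside 281 of 1973 rows (14.2%). Mir18b and Mir19b-2 did not.

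Mir106a-363 occupies 875 nucleotides of the minus strand of chromosome X, in the order Mir106a (52742503 to 52742567), Mir18b (52742331 to 52742413), Mir20b (52742113 to 52742192), Mir19b-2 (52741983 to 52742066), Mir92-2 (52741838 to 52741928) and Mir363 (52741693 to 52741767). Mir106a overlaps an exon of the non-coding gene Kis2 by up to 5 nucleotides. The other 5 lie inside no other annotated transcript of their strand.

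**Figure D1:**
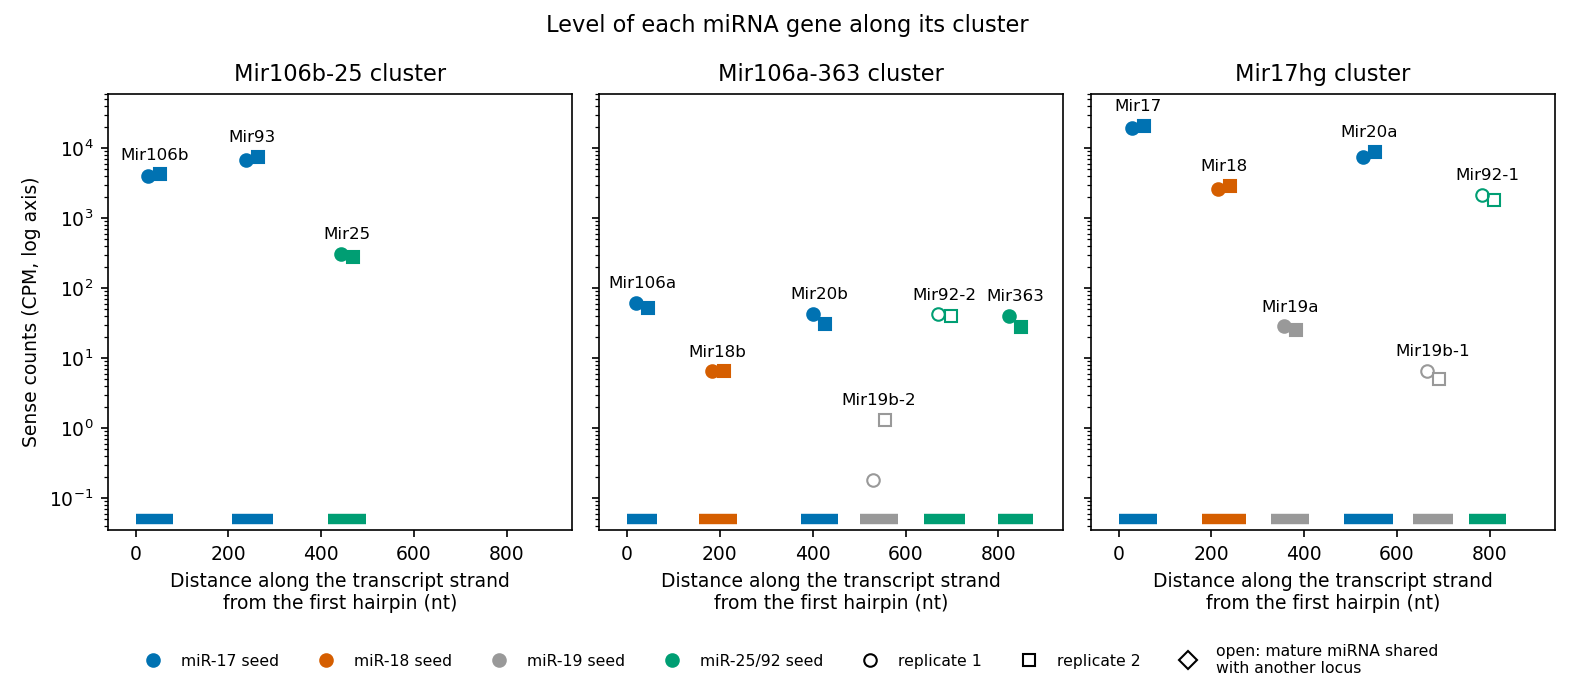
CPM of each miRNA gene on a log axis against the distance of its hairpin from the first hairpin of its cluster, for replicate 1 (circles) and replicate 2 (squares); bars at the bottom mark the hairpins, colours the seed, and open symbols rows whose mature miRNA is shared with another locus. All 3 rows of Mir106b-25 lie above all 6 of Mir106a-363, whose levels stay at 61.2 CPM or less. Rows with open symbols may lack reads.

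Ordered by mean level, the members ran Mir93, Mir106b, Mir25, Mir106a, Mir92-2, Mir20b, Mir363, Mir18b and Mir19b-2. Every row of Mir106b-25 also lay above every row of Mir106a-363 in each library. For Mir92-2 and Mir19b-2, whose mature miRNAs have copies, this is an order of rows that may lack reads. The step between the clusters, Mir25 over Mir106a, was 5.04-fold in replicate 1 (exact 95% confidence interval 4.49 to 5.68) and 5.35-fold in replicate 2 (4.74 to 6.06). Mir92-2 and Mir20b were the only neighbours in this order whose log2 ratio (0.18 ± 0.285) was smaller than its SD. They changed places between the libraries. Mir20b over Mir363 exceeded its SD (0.12 ± 0.0475), but the exact interval of the ratio held 1 in each library, so these neighbours were not distinguishable at this depth. Among all rows, those next to Mir93 in mean level were Mir411 (7619 and 6620 CPM) above and Mir100 (6579 and 6245 CPM) below. Next to Mir106b stood Mir98 (4641 and 4141 CPM) and Mir369 (4070 and 3853 CPM). Mir25 stood between Mir370 (312 and 275 CPM) and Mir195a (301 and 272 CPM), and Mir106a between Mir377 (65.5 and 52.5 CPM) and Mir192 (58.2 and 53.8 CPM). Mir93 and Mir106b differed from both of their neighbours by less than the SD of the log2 ratio. Mir195a and Mir377 differed from Mir25 and Mir106a by slightly more than it.

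Seed by seed, the distance between the clusters was far from uniform. For the miR-17 seed, Mir106b and Mir93 together held 58969 reads in replicate 1, against 579 for Mir106a and Mir20b. In replicate 2 they held 70965 reads, against 497. Mir106b-25 thus exceeded Mir106a-363 by 102-fold in replicate 1 (exact 95% confidence interval 93.8 to 111) and by 143-fold in replicate 2 (131 to 156), a log2 ratio of 6.91 ± 0.345 (n = 2). These intervals do not overlap, so the libraries differed in the size of the ratio by more than counting error. For the miR-25/92 seed, Mir25 held 1719 reads in replicate 1, against 458 for Mir92-2 and Mir363, and 1659 in replicate 2, against 411. That is 3.75-fold in replicate 1 (3.38 to 4.17) and 4.04 in replicate 2 (3.62 to 4.51), a log2 ratio of 1.96 ± 0.0742.

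In read counts Mir106b-25 was higher at both shared seeds, by a mean of 121-fold at the miR-17 seed and 3.89-fold at the miR-25/92 seed. The value of the miR-25/92 seed counts Mir92-2, whose mature miRNA has a copy at Mir92-1. If the Mir92-2 row lacks reads, 3.89-fold is an upper bound and the order of the clusters at this seed is not known. Over all members the ratio was 56.5 in replicate 1 and 76.0 in replicate 2 (log2 6.03 ± 0.303). It counts Mir92-2 and Mir19b-2, whose mature miRNAs have copies. If those rows lack reads, this ratio too is an upper bound, and the order over all members is not known. Each of these log2 ratios was many times its SD and had 1 sign in both libraries. With 2 libraries an exact two-sided sign-flip permutation test cannot go below p = 0.5, so no test of these ratios could pass a threshold.

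Single genes gave the same order. Mir93 was 109-fold and 147-fold above Mir106a in replicates 1 and 2, and 156-fold and 244-fold above Mir20b. Mir25 was 7.67-fold above Mir363 in replicate 1 (6.67 to 8.86) and 9.88-fold in replicate 2 (8.42 to 11.6). It was 7.35-fold and 6.83-fold above Mir92-2. Without Mir92-2, whose mature miRNA has a copy, the miR-25/92 comparison of Mir25 over Mir363 stood at log2 3.12 ± 0.257, 8.71-fold.

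**Figure D2:**
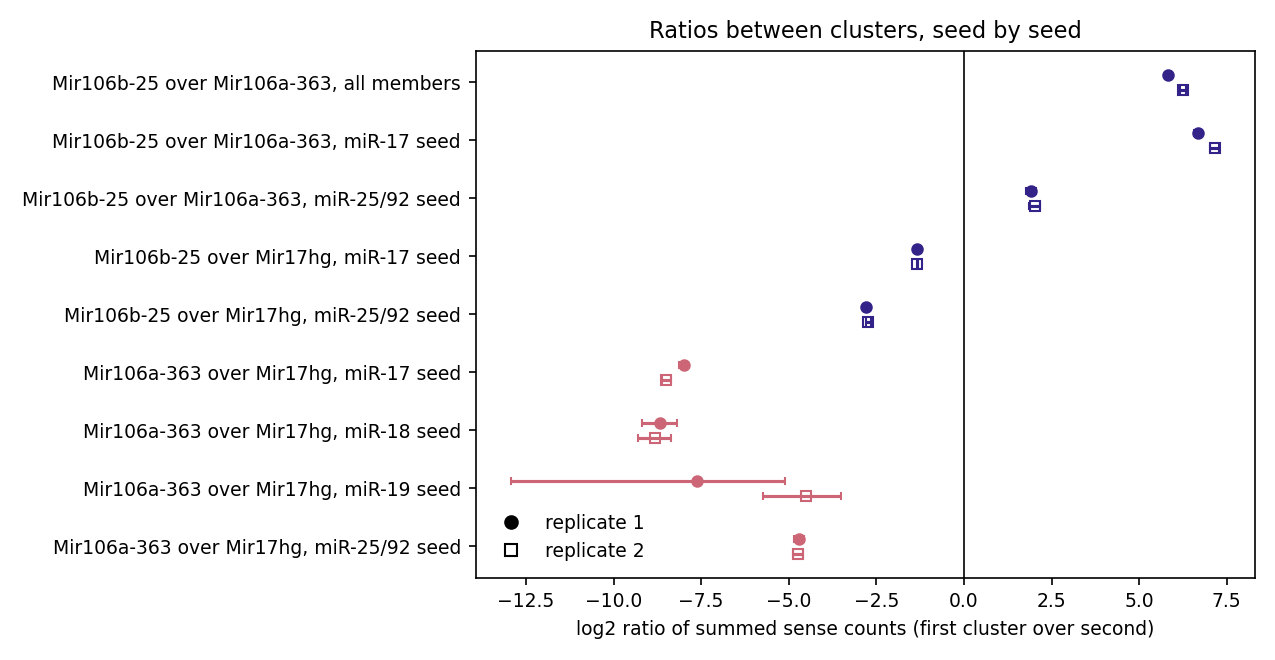
The log2 ratio of summed sense counts between clusters in replicate 1 (filled circles) and replicate 2 (open squares), with bars for the exact 95% counting interval. Mir106b-25 lies right of 0 against Mir106a-363 at both shared seeds, and both clusters lie left of 0 against Mir17hg.

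The Mir17hg cluster serves as the common yardstick, since it holds all 4 seeds. At the miR-17 seed, Mir106b and Mir93 held 0.398 times the reads of Mir17 and Mir20a in replicate 1 (exact 95% confidence interval 0.394 to 0.402) and 0.397 times in replicate 2 (0.393 to 0.400). The log2 ratio of -1.33 ± 0.00410 had the smallest spread of the 9 ratios computed between clusters, an SD of 2 values. Single genes inside the sums were less steady. Mir93 over Mir17 was 0.350 and 0.363 in replicates 1 and 2, and Mir106b over Mir20a was 0.521 and 0.475. Of the gene pairs in this ratio, only Mir106b over Mir17 (0.206 and 0.202) had exact intervals that overlap between the libraries. At the miR-25/92 seed, Mir25 held 0.145 and 0.151 times the reads of Mir92-1 (log2 -2.76 ± 0.0453), a row that shares its mature miRNA with Mir92-2. Mir93 alone came close to Mir20a, at 0.886 and 0.854 times its reads, and lay 2.81-fold below Mir17. Mir106b lay 4.90-fold below Mir17.

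Mir106a and Mir20b lay 256-fold below Mir17 and Mir20a in replicate 1 (236 to 278) and 360-fold below in replicate 2 (330 to 394), a log2 ratio of -8.25 ± 0.349. Mir18b lay 408-fold below Mir18 in replicate 1 (295 to 583) and 447-fold below in replicate 2 (327 to 629). Whether the low rows of Mir106a, Mir20b and Mir18b hold misread reads of these close paralogs was not tested. Mir92-2 and Mir363 lay 26.0-fold below Mir92-1 in replicate 1 (23.7 to 28.6) and 26.7-fold below in replicate 2 (24.2 to 29.6), or log2 -4.72 ± 0.0289. For the miR-19 seed, Mir19b-2 held 0.00510 times the reads of Mir19a and Mir19b-1 in replicate 1 (0.000129 to 0.0288, on 1 read) and 0.0437 times in replicate 2 (0.0186 to 0.0880). These intervals overlap. Their log2 mean of -6.07 ± 2.19 rests on that single read and is -4.52 in replicate 2 alone.

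As shares of all reads at rows with the miR-17 seed, Mir106b-25 supplied 28.4% in replicate 1 (exact 95% confidence interval 28.2 to 28.6) and 28.3% in replicate 2 (28.2 to 28.5). Mir106a-363 supplied 0.279% (0.257 to 0.302) and 0.198% (0.181 to 0.217), and Mir17hg gave the remaining 71.3% and 71.5%. The only other locus with this seed, Mir6383, held 0 reads in each library, a count that leaves room for at most 0.539 CPM (replicate 1) or 0.497 CPM (replicate 2). At the miR-18 seed, Mir18b supplied 0.244% in replicate 1 (0.171 to 0.338) and 0.223% in replicate 2 (0.159 to 0.305). At the miR-19 seed, Mir19b-2 supplied 0.508% of 197 reads in replicate 1 (0.0129 to 2.80) and 4.19% of 191 reads in replicate 2 (1.83 to 8.09). At the miR-25/92 seed, Mir25 supplied 11.3% in replicate 1 (10.8 to 11.8) and 11.7% in replicate 2 (11.2 to 12.3). Mir92-2 and Mir363 together supplied 3.01% (2.75 to 3.30) and 2.91% (2.64 to 3.20).

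The other loci of the miR-25/92 seed gave 7.39% and 7.62%. Of these, Mir92b held 109 and 75.5 CPM and Mir32 held 92.5 and 103 CPM, both above Mir92-2 and Mir363. Mir367, which belongs to the pluripotency cluster of Mir302, held 3 reads in replicate 1 and 0 in replicate 2. Rows of the miR-17 seed held 37278 CPM in replicate 1 and 41462 CPM in replicate 2. Those of the miR-25/92 seed held 2728 and 2339 CPM, those of the miR-18 seed 2645 and 2893 CPM, and those of the miR-19 seed 35.4 and 31.6 CPM. If rows whose mature miRNA has a copy lack reads, the totals of the miR-25/92 and miR-19 seeds are lower bounds.

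**Figure D3:**
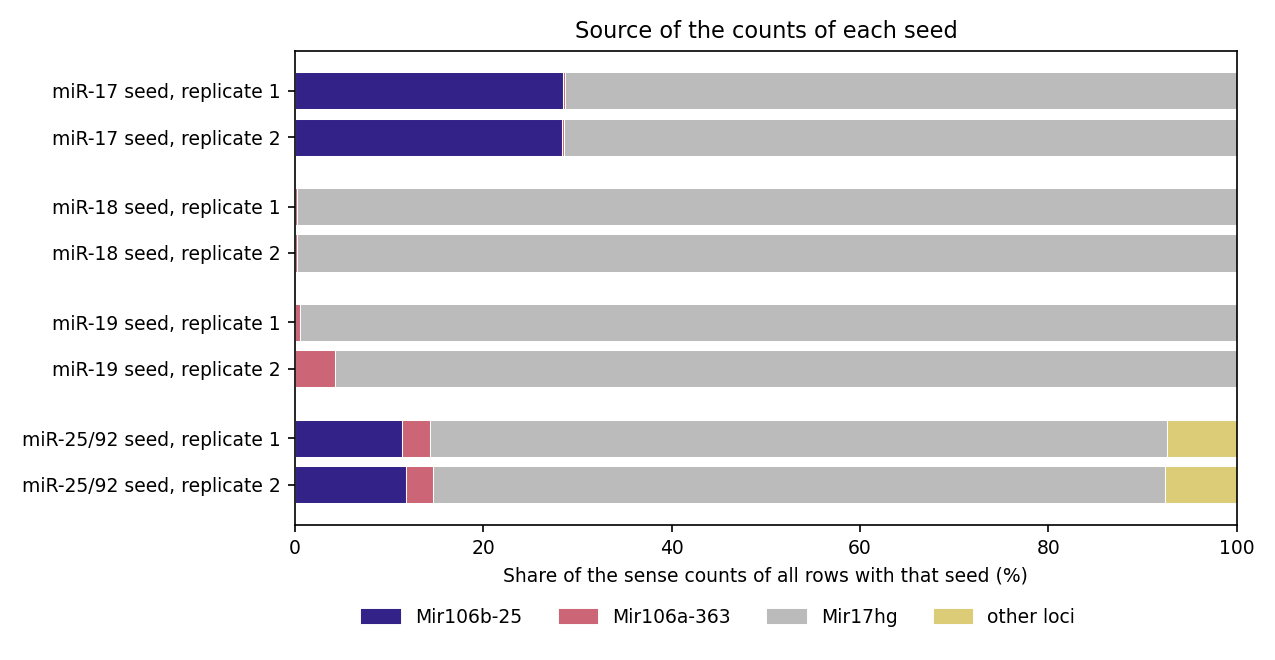
Share of the sense counts of all rows with a given seed that came from Mir106b-25, Mir106a-363, Mir17hg or other loci, as bars from 0 to 100%, for each library. Mir106b-25 gives 28.4% and 28.3% at the miR-17 seed, and Mir106a-363 is visible at the miR-25/92 seed (3.01% and 2.91%) and, on 8 reads, at the miR-19 seed of replicate 2.

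Mir92-2 and Mir19b-2 need a separate word, since their mature miRNAs cannot be assigned to a locus from their own sequence. The hairpins are shown 5′ to 3′ beside their Mir17hg copies, with the longest run they share in capitals. Mir92-2 lies on chromosome X, 52741838 to 52741928, and Mir92-1 on chromosome 14, 115044427 to 115044506.
Mir92-2: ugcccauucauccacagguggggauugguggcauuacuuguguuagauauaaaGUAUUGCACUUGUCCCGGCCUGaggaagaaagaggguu
Mir92-1: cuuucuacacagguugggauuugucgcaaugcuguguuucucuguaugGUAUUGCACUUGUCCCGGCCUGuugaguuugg
The run covers 22 bases, 1 more than miR-92a-3p. Mir19b-2 lies on chromosome X, 52741983 to 52742066, and Mir19b-1 on chromosome 14, 115044305 to 115044391.
Mir19b-2: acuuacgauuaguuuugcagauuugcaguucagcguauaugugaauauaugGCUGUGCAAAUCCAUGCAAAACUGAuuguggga
Mir19b-1: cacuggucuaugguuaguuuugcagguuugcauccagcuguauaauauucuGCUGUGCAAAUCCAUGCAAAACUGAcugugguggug
Here the run covers 25 bases, 2 more than miR-19b-3p.

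A read of exactly mature miR-92a-3p or miR-19b-3p therefore fits both loci. Multi-mapping reads are counted apart, as 26.9% of replicate 1 and 28.0% of replicate 2. No source states whether any of them are in the gene rows. The read totals and percentages of reads given here add them to the rows as a separate class. If none are, the rows of Mir92-2, Mir92-1, Mir19b-2 and Mir19b-1 hold only reads that reach beyond the shared run or come from the other arm. Under that reading all 4 rows are lower bounds, which also touches the places of Mir92-2 and Mir19b-2 in the order of levels. Mir92-2 held 0.0197 times the reads of Mir92-1 in replicate 1 (exact 95% confidence interval 0.0172 to 0.0224) and 0.0221 times in replicate 2 (0.0194 to 0.0251). Since both rows could lack the same reads, this compares the rows and not the output of the loci. The rows of Mir363 and Mir25, whose mature sequences are at 1 locus each, do not carry this limit. Their ratios to Mir92-2 or Mir92-1 do, as do all shares of the miR-25/92 and miR-19 seeds: if multi-mapping reads are outside the rows, the 11.3% and 11.7% of Mir25 and its ratios to these rows are upper bounds.

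The balance between the seeds also differed from cluster to cluster. In Mir106b-25 the miR-25/92 seed held 0.0292 times the reads of the miR-17 seed in replicate 1 (exact 95% confidence interval 0.0278 to 0.0306) and 0.0234 times in replicate 2 (0.0223 to 0.0245). In Mir106a-363 that ratio was 0.791 (0.698 to 0.896) and 0.827 (0.724 to 0.944), and it was 0.0803 and 0.0614 in Mir17hg. In Mir106b-25 the miR-17 seed was thus 34.3-fold and 42.8-fold higher than the miR-25/92 seed. In Mir106a-363 it was 1.26-fold and 1.21-fold higher with Mir92-2 counted. Without Mir92-2 it was 2.58-fold (2.21 to 3.03) and 2.96-fold (2.48 to 3.55) higher, an alternative chosen after seeing the data. If the Mir92-2 row lacks reads, the order of the seeds in Mir106a-363 is not known. The Mir17hg ratio and its shift between the libraries rest on Mir92-1, which shares its mature miRNA with Mir92-2. If the Mir92-1 row lacks reads, the Mir17hg ratio is a lower bound. The balance did not hold still between the libraries. It was higher in replicate 1 by 0.32 on the log2 scale in Mir106b-25 and by 0.39 in Mir17hg, with intervals that do not overlap, and it differed by -0.06 in Mir106a-363, with intervals that do.

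Between the libraries themselves, 7 members could be tested, those at a mean of 10 CPM or more. An exact two-sided binomial test on the counts of replicate 1 and replicate 2, adjusted over 288 rows by the Benjamini-Hochberg method, passed an adjusted p of 0.05 at 6 of the 7, beside 61.5% of all rows tested. None of the 7 also reached a ratio of 1.5, beside 5.90% of all rows. The test compares the reads of these libraries, not conditions, and a share of 6 in 7 is to be read against that background.

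Lower in replicate 1 were Mir93 (log2 replicate 1 over replicate 2 -0.18, adjusted p = 1.66e-69) and Mir106b (-0.10, adjusted p = 1.43e-13), beside 18.4% of all rows lower in that way. Higher in replicate 1 were Mir363 (0.52, adjusted p = 0.000728), Mir20b (0.45, adjusted p = 0.00197), Mir106a (0.25, adjusted p = 0.0427) and Mir25 (0.17, adjusted p = 0.00155), beside 43.1% of all rows. Mir92-2 did not pass (0.06, adjusted p = 0.703). The median of the 7 members was 0.17, beside 0.10 for all 288 rows. Relative to that median of all rows, Mir93 stood at -0.28, Mir106b at -0.20, Mir25 at 0.07, Mir92-2 at -0.04, Mir106a at 0.15, Mir20b at 0.35 and Mir363 at 0.42. TMM scaling moved all ratios by -0.10 and DESeq2 scaling by -0.12, and under either Mir25 and Mir106a no longer passed (adjusted p from 0.267 to 0.402) and Mir92-2 changed sign (-0.04 and -0.05). Mir106a also missed 0.05 at a minimum of 1 CPM (adjusted p = 0.0564).

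Genes of 1 cluster therefore did not all lean the same way. Mir93 and Mir106b were lower in replicate 1 and Mir25 was higher, and in Mir17hg the miR-17 seed genes Mir17 (-0.13) and Mir20a (-0.23) stood against Mir92-1 (0.23). Other loci of the miR-25/92 seed did not share 1 direction, with Mir92b at 0.52 and Mir32 at -0.15 (adjusted p = 0.118). Markers of other cell types moved as well: the liver miRNA Mir122 stood at 201 and 591 CPM in replicates 1 and 2, and the 3 red blood cell miRNAs Mir451a, Mir144 and Mir486 summed to 1261 and 959 CPM. Endothelial Mir126a stood at 74876 and 66025 CPM, and smooth muscle Mir143 and Mir145a summed to 85136 and 93532 CPM. The heart muscle markers summed to 50724 and 53395 CPM, most of it Mir208b. They did not share 1 direction, with Mir208a at 7349 and 7178 CPM and Mir499 at 1627 and 2024 CPM. The part of all these markers in the differences at the members was not tested.

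**Figure D4:**
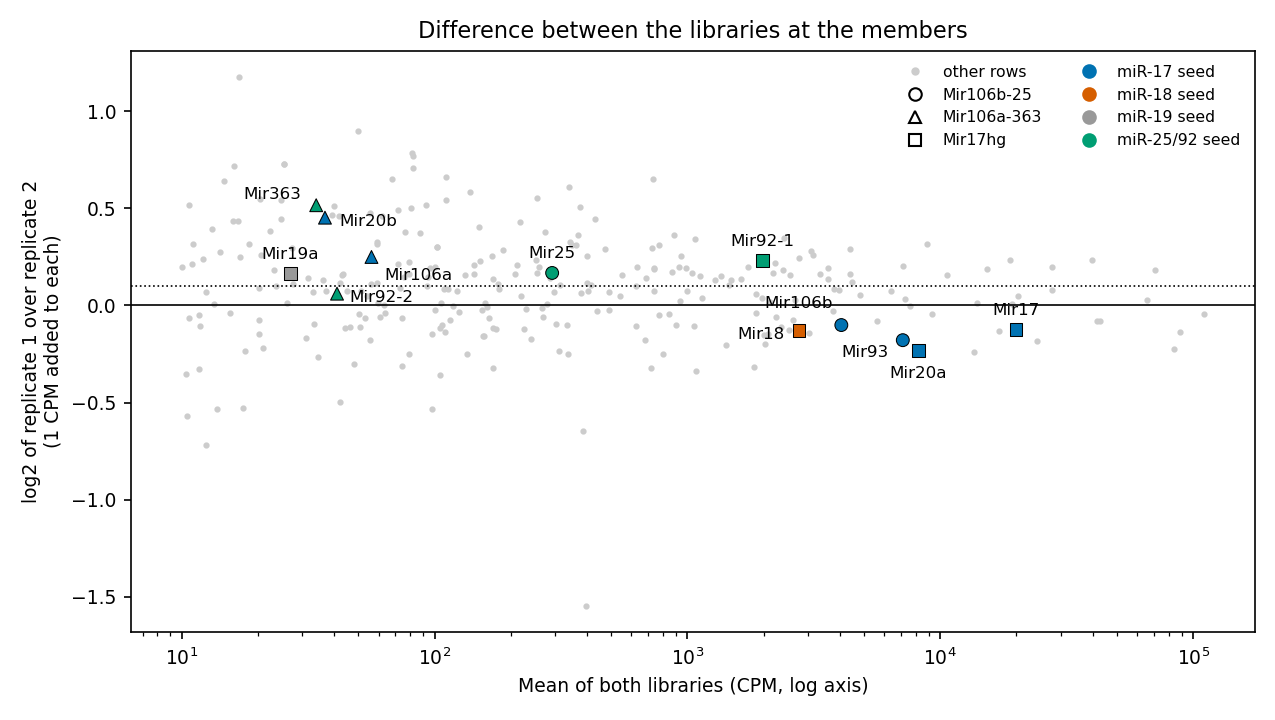
The log2 ratio of replicate 1 over replicate 2 (1 CPM added to each) against the mean level on a log axis, for the 288 rows at a mean of 10 CPM or more, with the members and the Mir17hg genes marked by cluster (shape) and seed (colour); the dotted line is the median of all rows, 0.10. Mir93 and Mir106b lie below it, while Mir363, Mir20b and Mir106a lie above it.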

How the data were processed

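MicroRNA-seq was made from mouse embryonic heart in 2 libraries, which the labels name biological replicates 1 and 2. The authors deposited raw read counts per miRNA gene on both strands, the sense strand and the opposite strand, aligned to mm10 with GENCODE M4 annotation according to the deposited notes. For aligner, counter and trimming, the status is: not given in the sources used here. The 4 read classes (unmapped, multi-mapping, without a gene, ambiguous) stayed out of totals and tests: unmapped reads were 21.2% and 17.2% and reads without a gene 3.60% and 2.92% of replicates 1 and 2. GENCODE M21, on the same build, named 1894 of the 1973 gene identifiers, and RefSeq miRNA sequences (GRCm38.p6) matched all 9 members at the same coordinates.

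CPM, ratios of summed counts inside a library, and exact Clopper-Pearson 95% intervals were computed from sense counts. Intervals, and the 3 counts that a count of 0 allows, describe counting error alone, because PCR copies of 1 molecule are separate reads here. Across all genes the libraries were compared with an exact conditional binomial test, with total counts as offset, a pseudocount of 1 CPM in ratios, and Benjamini-Hochberg adjustment. Nothing beyond the labels says how separate the biosamples were, so the spread may be partly technical. On simulated counts over 288 genes, the step made 198 calls among 200 genes given a 2-fold change and 0 among the rest. The simulated counts held read sampling error alone, while the libraries differed by more than that. The simulation therefore says nothing about false calls in these data. Members, lists and tests were chosen with earlier results of these data known. Genes named are the members, the Mir17hg genes, all rows with a member's seed, the rows next in level to Mir93, Mir106b, Mir25 and Mir106a, and the marker miRNAs. Alternatives were TMM (edgeR 4.0.16) and DESeq2 1.42.0 scaling in R 4.3.3, other minimums, pseudocounts and ratios, both strands, hairpin length, loci without a copy, all reads as denominator, and each library left out. Python 3.11.15, numpy 2.4.6, pandas 2.3.3, scipy 1.17.1 and matplotlib 3.10.9 were used.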

Additional observations from a re-analysis of the deposited data

Results flagged for a closer look

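Counts on the strand opposite to a member were looked at because no comparison above uses them. At Mir20b, 4 such reads lay in replicate 1 and 0 lay in replicate 2. They stand beside 238 sense reads in replicate 1. No annotated gene lies on that strand at any member. The other 8 members held 0 opposite-strand reads in both libraries.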

How the results depend on the processing

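No paired analysis was possible because the study has 1 group, so no replicate number is shared between groups. The 9 ratios between clusters kept their sign under the 33 alternatives that could be run on both libraries, and 26 of these moved the ratio by less than its SD. Some of the 26 could not move it at all and show no stability. Leaving out copied loci changes nothing at the miR-17 and miR-18 seeds, which have none. Counting both strands changes only ratios with Mir20b, the only gene in them with opposite-strand reads. Without loci that have a copy, the log2 ratio of Mir106b-25 over Mir106a-363 was 6.43 over all members and 3.12 at the miR-25/92 seed. Per hairpin length, Mir106b-25 over Mir17hg stood at -1.27 (miR-17 seed) and -2.83 (miR-25/92 seed), and Mir106a-363 over Mir17hg at -7.89 (miR-17 seed), -8.53 (miR-18 seed) and -4.77 (miR-25/92 seed); hairpins of different length alone make these shifts. Without loci that have a copy, no ratio to Mir17hg could be formed at the miR-19 seed or the miR-25/92 seed. Leaving out a library returns the other library's value and shows no stability; at the miR-19 seed the values were -4.52 without replicate 1 and -7.61 without replicate 2. Of 288 rows tested, 17 differed between the libraries at a ratio of 1.5, and 2 at a ratio of 2. At a minimum of 1 CPM it was 39 of 432 rows, and over all genes with a count 45 of 692, since more low rows were tested. No member was among these calls under any of the 7 alternatives, in which 7 to 9 members were tested. With so few members, this is to be read against these small shares of all rows. Without Mir92-2, an alternative chosen after seeing the data, the log2 ratio of the miR-25/92 seed over the miR-17 seed in Mir106a-363 was -1.47, against -0.31 with it. Counting both strands lowered the mean of Mir106b to 3855 CPM, and taking all reads as denominator lowered every level (Mir93 to 3386 CPM). Depth limits Mir19b-2 and Mir18b, which rest on 1 to 39 reads.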
